A study of Mus musculus with 36 samples.

Results

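The peaks described here are Ago2-bound RNA segments annotated to genes of the protein synthesis and RNA splicing machinery in mouse colonic tumours. A peak was taken when 1 of its annotated target genes had a symbol beginning with Rpl, Rps, Eif, Eef, Hnrnp, Srsf or Rbm, and 176 of the 7585 annotated peaks met that rule. They lay on 96 of the 3933 genes named in the annotation, and 2 of the peaks named a second gene as well. By role, 48 peaks lay on 30 genes with ribosomal protein symbols, 9 on 4 S6 kinase genes, 49 on 26 genes with initiation factor symbols and 11 on 4 genes with elongation factor symbols. Another 28 peaks lay on 16 heterogeneous nuclear ribonucleoprotein (hnRNP) genes, 13 on 5 SR protein genes and 18 on 11 genes with Rbm symbols. The prefixes also take in relatives that are not parts of the machinery, such as the S6 kinases, the translation inhibitor Eif4ebp2 and the single-stranded nucleic acid binder Rbms1. The S6 kinases, the kinases Eif2ak1 and Eif2ak2 and Eif4ebp2 held 15 member peaks. The kinase gene Eef2k had 1 more, an exonic peak without a seed match of 7 or 8 bases, which is counted with the elongation factors below. By symbol too, Eif2ak1, Eif2ak2, Eif4ebp2 and Eif4enif1 are counted below with the initiation factors, and Rps19bp1 and Rpl7l1 with the ribosomal proteins.

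The study measured RNA held by Ago2 in colonic tumours of C57BL/6 mice, using Halo-enhanced Ago2 pulldown, a form of crosslinking and immunoprecipitation sequencing in which a covalent tag replaces the antibody. All mice carried Halo-Ago2/+, Villin-CreER/+ and both floxed copies of Apc. The 6 tumours called WT had wild-type K-Ras, and the 6 called G12D also carried K-Ras-G12D/+, an activated form of the Ras GTPase. Recombination was started at 8 to 12 weeks of age with an enema of 4-hydroxytamoxifen. The Villin promoter limits the inducible Cre to gut epithelium, so the other cells in a tumour kept intact Apc and their original K-Ras. Tumour tissue was scraped from the colon of moribund animals and crosslinked with UV light, and Ago2 was captured on resin through its Halo tag. Whether 1 number stands for 1 mouse is not said in the labels, and the p-values therefore cover only the spread among these samples. The labels also place replicates 1 to 3 of each genotype in batch 1 and replicates 4 to 6 in batch 2, without saying what a batch was.

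Argonaute proteins carry miRNAs, which guide them to messenger RNAs by pairing through the seed, a short stretch near the miRNA's start. Most known functional sites lie in 3′ UTRs, where Argonaute is not displaced by translating ribosomes, but crosslinking methods also recover coding sequence. Ribosomal proteins and elongation factors are made from some of the most abundant and most heavily translated mRNAs of a cell, while many hnRNP, SR protein and Rbm genes control their own mRNAs through conserved, alternatively spliced segments.

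The authors' annotation lists the seed matches in each peak, and a match of type 8mer, 7m8 or 7A1 is called a strong site below, as against a 6mer. The mature sequences of miRNAs from the 8 seed families with the most member peaks are printed because a member peak's site is the complement of their seed, which is in capitals. The sequences are those of RefSeq for GRCm38.p6.
mmu-miR-200b-3p: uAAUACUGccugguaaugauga
mmu-miR-16-5p: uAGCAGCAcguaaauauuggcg
mmu-let-7a-5p: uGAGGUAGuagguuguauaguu
mmu-miR-29a-3p: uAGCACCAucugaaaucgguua
mmu-miR-30a-5p: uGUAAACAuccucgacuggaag
mmu-miR-194-5p: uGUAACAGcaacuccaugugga
mmu-miR-22-3p: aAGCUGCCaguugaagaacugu
mmu-miR-24-3p: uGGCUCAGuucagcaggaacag

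The miR-200 family, known for keeping epithelial cells epithelial, had strong sites in 13 member peaks (7.39%), against 5.68% of all annotated peaks. Those 13 peaks lay on 13 genes, which came from all 7 groups above: Rpl13a, Rps20, Rps6ka1, Rps6ka3, Rps6kb1, Eif4e2, Eef1b2, Hnrnpab, Hnrnph3, Srsf1, Srsf10, Rbm38 and Rbms1. The miR-15/16 family followed with 12 member peaks (6.82%, against 6.24% of all peaks). let-7, the family with 10.3% of all annotated peaks, had sites in 7 member peaks (3.98%). miR-24 was likewise found in a smaller share of members (5 peaks, 2.84%) than of all peaks (5.08%), whereas miR-30 (7 peaks, 3.98%) and miR-22 (6 peaks, 3.41%) took a larger share of members than of all peaks (2.39% and 2.00%). miR-29 had 7 member peaks (3.98%, against 6.10%) and miR-194 had 6 (3.41%, against 4.65%). These shares are counts of a few peaks and were not tested.

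The families also differed in where their member sites lay. Of the miR-24 peaks, 4 were exonic and 1 was in a 3′ UTR, whereas miR-22 had 1 exonic peak and 5 in 3′ UTRs and miR-200 had 3 and 7. The miR-15/16 peaks were spread over both, with 5 exonic and 6 in 3′ UTRs. In 4 peaks the annotation gave several strong sites of 1 family: a 3′ UTR peak of Rpl14 had 4 miR-15/16 sites, a 3′ UTR peak of Srsf1 had 2 miR-200 sites, an exonic peak of Hnrnpa1 had 2 miR-27 sites and an exonic peak of Rbm42 had 2 miR-24 sites. In the miRNA libraries, the summed level of the miR-200 family was 35398 ± 6200 normalised counts (SD, n = 6) in WT and 36175 ± 10557 in G12D. Summed over the let-7 family, WT had 16382 ± 1842 and G12D 16466 ± 1763. For miR-15/16 it was 5360 ± 321 and 5177 ± 183. In these 3 families the difference between genotypes was smaller than the spread between tumours. Of the families printed above, miR-29 alone had a difference larger than both SDs, at 1494 ± 126 in WT and 1319 ± 144 in G12D. Its ranges overlapped, 1308 to 1686 in WT and 1095 to 1527 in G12D, and the difference was not tested.

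Depth set how finely the members could be read. Over all peaks the 12 Ago2-bound mRNA libraries held 30607 to 974013 reads, recovered from the normalised values, and 1 read was worth 0.482 to 4.53 normalised counts. WT replicates 5 and 6 stood apart, with 30607 and 57037 reads. WT replicate 5 had 64.8% of the member peaks at 0 and WT replicate 6 had 40.9%, while the share at 0 ran from 0.568% to 9.09% over the remaining 10 libraries. WT replicate 5 held 238 reads in all member peaks and G12D replicate 1 held 17859. Many results below are given with and without these 2 libraries, and those given only with all libraries may also rest on them. In bulk tumours, fewer cells of a type and less RNA per cell cannot be told apart, and without input libraries RNA abundance and Ago2 occupancy are joined in a peak's signal.

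Exonic peaks outnumbered those of the plain 3′ UTR class among the members, the reverse of the order in the whole annotation. That order did not hold once the starred 3′ UTR peaks described below were added to the 3′ UTR count. Nor did it hold with 1 peak per gene, where 36 were exonic and 39 in plain 3′ UTRs. Of the 176 member peaks, 72 were exonic (40.9%, 95% Wilson interval 33.9 to 48.3%) and 64 lay in 3′ UTRs (36.4%, 29.6 to 43.7%). Over all annotated peaks the shares were 32.2% and 49.6%. The intervals cover counting error only and treat peaks as separate, although peaks of 1 gene share a transcript. Peaks in 5′ UTRs made up 6.25% of members (11 peaks), against 2.74% of all peaks, and introns 7.39% (13 peaks), against 12.1%. The annotation also has starred UTR classes, whose star is not explained in it, and these held 12 member peaks in 3′ UTRs and 4 in 5′ UTRs. Member peaks were as wide as the others, with a median of 55.5 bases against 56.

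The exonic share was above that of all peaks in the translation groups and below it in hnRNP and SR protein genes. Elongation factors had the most exonic peaks for their number (9 of 11, 81.8%), followed by ribosomal proteins (25 of 48, 52.1%, interval 38.3 to 65.5%). Initiation factors were closer to the whole annotation, with 19 exonic peaks of 49 (38.8%) and 20 in 3′ UTRs. Of the hnRNP peaks 8 of 28 were exonic (28.6%), of the Rbm peaks 6 of 18 and of the S6 kinase peaks 3 of 9. SR protein genes had 2 exonic peaks of 13 (15.4%), and 10 of their peaks were in 3′ UTRs, 5 of these in the starred class. Among 5′ UTR peaks, 5 lay on hnRNP genes and 3 on ribosomal protein genes, and the intronic ones lay on initiation factor (6), Rbm (4) and hnRNP (3) genes. These orderings are descriptions of 1 annotation and have no replicates.

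**Figure D1:**
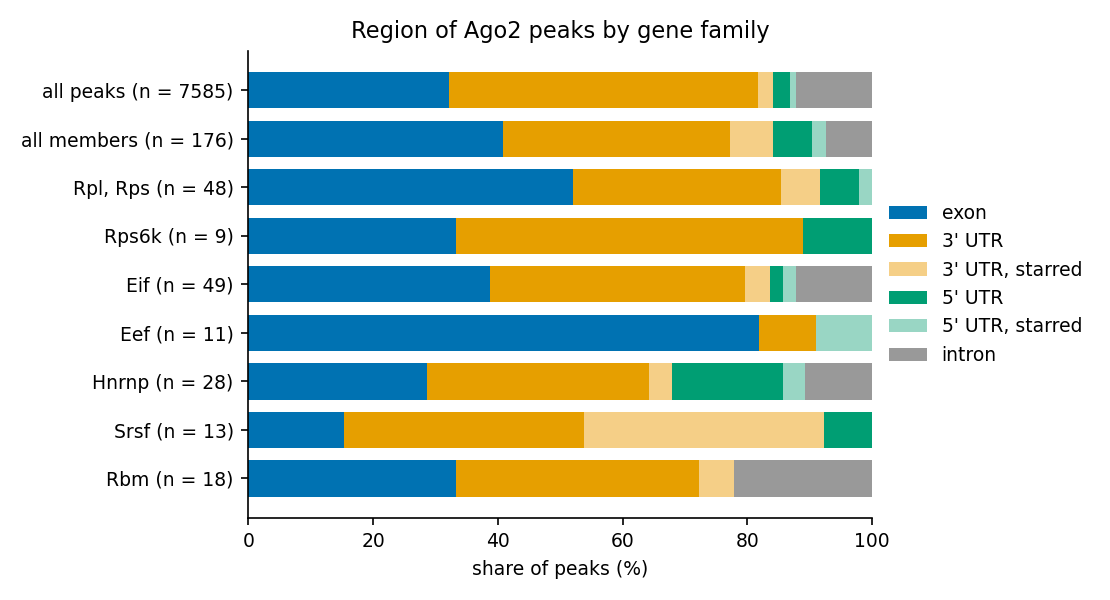
Share of annotated peaks (%, horizontal axis) in each transcript region for all 7585 peaks, for the 176 member peaks and for the 7 gene groups, with each bar split by region. The exon segment runs from 15.4% in SR protein genes to 81.8% in elongation factor genes, against 32.2% over all peaks.

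Strong sites were fewer in exonic member peaks than in exonic peaks as a whole and were about as frequent in plain 3′ UTRs, whereas 8mers alone were fewer in both. In the small starred 3′ UTR class they were fewer among members, at 6 of 12 (50%, interval 25.4 to 74.6%), against 81.0% (145 of 179). A strong site was annotated in 43 of the 72 exonic member peaks (59.7%, interval 48.2 to 70.3%), against 76.7% of all exonic peaks (1871 of 2440). In plain 3′ UTRs it was 47 of 64 (73.4%, 61.5 to 82.7%), against 76.2% (2867 of 3761). With 6mers counted too, the member shares came to 79.2% in exons and 85.9% in 3′ UTRs, against 89.3% and 89.4% of all peaks. With 8mers alone they came to 23.6% in exons and 25% in 3′ UTRs, against 33.0% and 37.3%. Intronic member peaks had a strong site in 12 of 13 cases (92.3%), above the 72.7% of all intronic peaks. Those in plain 5′ UTRs had one in 8 of 11 (72.7%), against 76.4%. Over all regions, 120 of 176 member peaks had one (68.2%, 61.0 to 74.6%), against 76.0%.

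The gap in exons was widest on 4 genes with many exonic peaks, a grouping made after the values were seen. Eef1a1, Eef2, Eif4g2 and Rps3a1 each had 3 or more exonic peaks, and a strong site stood in 4 of their 17 exonic peaks (23.5%, interval 9.56 to 47.3%). Genes with as many exonic peaks in the whole annotation had one in 67.0%. In the remaining member genes the exonic share was 39 of 55 (70.9%, 57.9 to 81.2%), against 80.1% of all exonic peaks on such genes. With 1 peak per gene the exonic share was 61.1% for members and 79.4% for all, and the 3′ UTR share was 82.1% and 83.6%. Among peaks found in both genotypes' lists it was 11 of 15 exonic member peaks (73.3%, against 78.1%) and 14 of 14 in 3′ UTRs (against 84.6%).

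**Figure D2:**
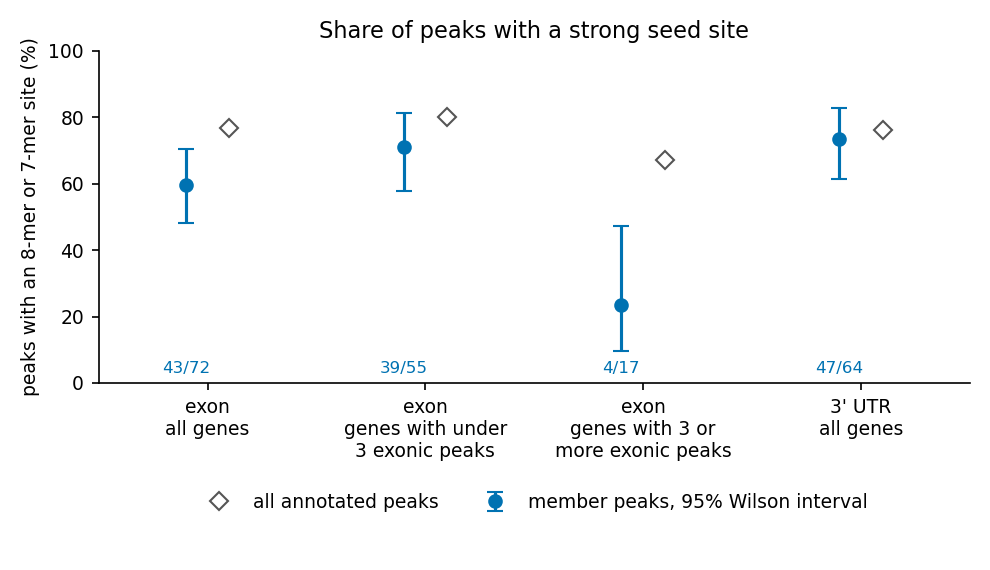
Share of peaks with an annotated strong seed site (%), with member peaks as points with 95% Wilson intervals and all annotated peaks of the same class as diamonds. The lowest point is that of exonic member peaks on genes with 3 or more exonic peaks (4 of 17), and the 3′ UTR point (73.4%), which leaves out the starred class, lies near its diamond (76.2%).

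Within the gene groups, a strong site was annotated in 15 of 25 exonic and 12 of 16 3′ UTR peaks of ribosomal protein genes. For initiation factors the counts were 11 of 19 exonic and 14 of 20 3′ UTR peaks, and for hnRNP genes 4 of 8 and 7 of 10. Elongation factors had the fewest, with 3 of 9 exonic peaks, and S6 kinases the most, with 8 of 9 over all regions. SR protein genes had one in 4 of 5 peaks in plain 3′ UTRs and in 1 of 5 in the starred class. Exonic peaks with and without a site had nearly the same signal: their median levels were 35.2 and 34.5 normalised counts per 100 bases. In 3′ UTRs the medians were 35.9 with a site and 25.8 without. Over all annotated peaks the medians per 100 bases were 35.9 with a site and 31.9 without in exons, and 34.4 and 28.9 in 3′ UTRs. Not divided by length, the exonic members' median was lower with a site, at 16.9 against 19.3, and that of 3′ UTR members higher, at 20.1 against 15.0.

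Single genes often carried several peaks. Of the 96 genes, 52 had 1 peak, 44 had 2 or more and 4 had 5 or more. Both exonic and 3′ UTR peaks were present on 16 genes, and in 9 of them the highest exonic peak stood above the highest 3′ UTR peak per 100 bases. Rpl14 was such a gene, with 476 normalised counts per 100 bases in its exonic peak and 37.5 in its 3′ UTR peak. Eif4ebp2 was one of the other 7, with 40.4 in its exonic peak and 299 in its highest 3′ UTR peak. A further 25 genes had exonic but no 3′ UTR peaks, and 27 had 3′ UTR but no exonic peaks.

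Member peaks took a small and variable part of each library. Their share of the summed peak signal was 1.56 ± 0.55% (SD, n = 6) in WT and 1.67 ± 0.32% in G12D, with ranges of 0.778 to 2.19% and 1.27 to 2.20% that overlapped. Without WT replicates 5 and 6 the WT mean was 1.89 ± 0.25%. In batch 1 the shares were 1.99 ± 0.17% in WT and 1.88 ± 0.30% in G12D (n = 3 each), and in batch 2 they were 1.13 ± 0.41% and 1.45 ± 0.17%. The order of the genotypes thus turned between batches, but the turn rested on the shallow WT replicates 5 (0.778%) and 6 (1.03%). WT replicate 4, the remaining WT library of batch 2, was at 1.58%, above the G12D mean of that batch. Exons held 60.5 ± 4.8% of the members' exonic and 3′ UTR signal in WT and 57.6 ± 5.8% in G12D, against 46.1 ± 0.71% and 43.7 ± 2.5% over all peaks. That exonic share was higher in members than in all peaks in 12 of 12 libraries, by 7.45 to 18.7 percentage points. Ribosomal protein peaks made up 22.9 ± 10.6% of member signal in WT and 27.0 ± 7.9% in G12D. WT replicate 5 had the lowest ribosomal protein share (8.40%) and G12D replicate 2 the highest (37.6%), and in both genotypes the 2 highest libraries were in batch 1. Initiation factor peaks made up 35 ± 15.4% in WT, with WT replicate 5 at 62.6%, and 28.7 ± 5.5% in G12D.

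**Figure D3:**
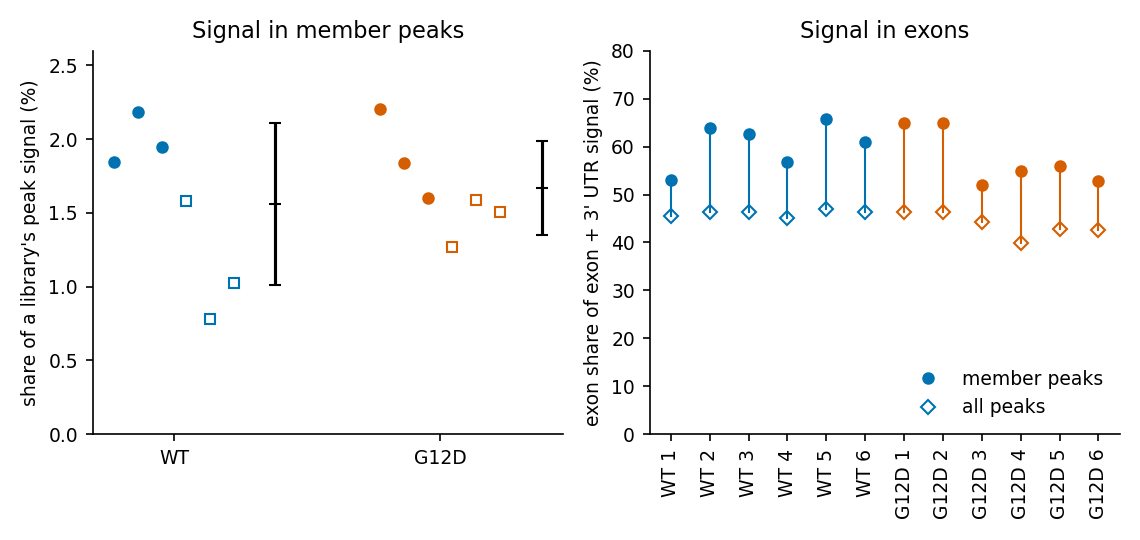
Left, share of each library's peak signal in member peaks (%), 1 point per tumour, filled circles for batch 1, open squares for batch 2, and mean ± SD at the right of each group. Right, exon share of exonic plus 3′ UTR signal (%) in each of the 12 libraries, filled for member peaks and open diamonds for all peaks: the member value is the higher one in every library.

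The members' signal was concentrated in few peaks. The 12 with a mean of at least 100 normalised counts (6.82% of members) carried 17.2 to 40.8% of a library's member signal, with a median of 34.9%. Of these 12, 8 were exonic, 3 were in 3′ UTRs and 4 had no strong site, among them the 2 highest. The median member level was 16.7 normalised counts, against 18.7 over all annotated peaks, and the highest member, at 262, ranked 151 among all peaks.

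Among ribosomal proteins, the building blocks of the ribosome, the highest peak lay in an exon of Rpl14, a large-subunit protein (chr9:120572093-120572147, plus strand, mm10), and had no seed site. Its lowest, median and highest values were 0, 144 and 599 normalised counts in WT and 96.6, 177 and 672 in G12D. The groups overlapped widely, and WT replicates 5 and 6 were the 2 lowest libraries, at 0 and 4.82. The log2 fold change of G12D over WT was 2.06 ± 0.94 (SE, limma, adjusted p = 0.128), and 0.11 without those 2 libraries. In an exon of Rps3a1, a small-subunit protein, a peak with no site (chr3:86141238-86141296, minus strand), chosen after its values were seen, ran from 0 over 110 to 322.01 in WT and from 88.0 over 176 to 413 in G12D. Here too WT replicates 5 and 6 were lowest, both at 0, and the log2 fold change moved from 2.6 ± 1.02 (limma, adjusted p = 0.111) to 0.27 without them.

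The highest 3′ UTR peak of a ribosomal protein gene lay on Rpl10a, a large-subunit protein (chr17:28330826-28330879, plus strand), and likewise had no strong site. It ran from 9.64 over 101 to 250 in WT and from 128 over 256 to 346 in G12D, with 4 of 6 G12D tumours above every WT tumour. The log2 fold change was 1.84 ± 0.71 (limma, adjusted p = 0.110), and 0.55 without WT replicates 5 and 6. The Rpl14 3′ UTR peak with the 4 miR-15/16 sites (chr9:120574121-120574236, plus strand) was lower, at 29.1 ± 22.1 in WT and 58.0 ± 22.4 in G12D. An exonic peak of Rps20, a small-subunit protein, with a miR-200 site ran from 4.53 over 70.4 to 180 in WT and from 32.4 over 85.3 to 271 in G12D, so the groups overlapped through most of their range.

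A low exonic peak of Rpl4, a large-subunit protein, with a miR-423 site (chr9:64174823-64174873) was 1 of the 2 members whose groups did not overlap. WT tumours ran from 0 over 4.80 to 12.3 normalised counts and G12D tumours from 13.1 over 20.9 to 25.5, so every G12D tumour was above every WT tumour. This peak was in the G12D peak list alone, and entry through that list favours a higher level in G12D. The log2 fold change was 2.32 ± 0.73 (limma, adjusted p = 0.108) and 1.22 without WT replicates 5 and 6. In a 5′ UTR peak of Rps13, a small-subunit protein, with a let-7 site the means were 18.5 ± 13.0 in WT and 48.4 ± 14.9 in G12D. In that peak 5 of 6 G12D tumours were above every WT tumour (log2 fold change 1.58 ± 0.63, limma, adjusted p = 0.113). Ribosomal protein mRNAs have many processed pseudogenes and near copies in the genome, and no source used here gives how reads shared among copies were counted, so these levels are uncertain.

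The S6 kinases, which phosphorylate ribosomal protein S6 downstream of growth factor signalling, had miR-200 sites in their 2 highest peaks, an exonic peak of Rps6ka3 and a 5′ UTR peak of Rps6ka1. The Rps6ka3 peak (chrX:159317939-159317999, plus strand), with a site of type 7A1, ran from 18.1 over 59.3 to 196 in WT and from 37.0 over 125 to 359 in G12D, and the groups overlapped (log2 fold change 1.06 ± 0.65, limma, adjusted p = 0.20). Without WT replicates 5 and 6 the fold change was 0.21. The highest 3′ UTR peak, on Rps6kb1, which encodes the S6 kinase downstream of mTOR (chr11:86502361-86502418), held a miR-200 8mer. Its values were 0, 17.1 and 43.0 in WT and 4.63, 26.1 and 51.1 in G12D, nearly the same range, and its fold change was positive with all libraries (1.06 ± 0.81) and negative without WT replicates 5 and 6 (-0.23). An exonic peak of Rps6ka1 with a miR-30 8mer ran from 4.53 over 19.9 to 49.4 in WT and from 18.5 over 74.6 to 108 in G12D. Its groups overlapped less, with a log2 fold change of 1.92 ± 0.69 (limma, adjusted p = 0.108).

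Initiation factors bring the ribosome, the first transfer RNA and the mRNA cap together. Their highest 3′ UTR peak lay on Eif2d, a factor that can deliver transfer RNA to the ribosome (chr1:131161286-131161342, plus strand), and held a miR-194 site. It ran from 13.6 over 76.0 to 237 in WT and from 139 over 221 to 434 in G12D, with 3 G12D tumours above every WT tumour. The log2 fold change was 1.81 ± 0.66 (limma, adjusted p = 0.108) and 0.80 without WT replicates 5 and 6. Their highest exonic peak was on Eif4b, a helper of the cap-binding helicase (chr15:102095001-102095049, plus strand), with a miR-24 8mer. WT ran from 43.6 over 63.0 to 214.5 and G12D from 73.3 over 176 to 380, and the highest WT value was that of the shallow WT replicate 6. The log2 fold change of 1.09 ± 0.60 (limma, adjusted p = 0.164) was about the same without WT replicates 5 and 6 (1.16).

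Peaks on the regulators of the cap-binding complex and of the guanine nucleotide exchange factor for eIF2 were among those with the smallest p. Eif4ebp2 encodes a 4E-binding protein, which holds the cap-binding factor inactive. Its 3′ UTR peak with a miR-186 site (chr10:61433086-61433136) ran from 0 over 4.12 to 10.9 in WT and from 7.605 over 22.4 to 35.9 in G12D (log2 fold change 2.48 ± 0.76, limma, adjusted p = 0.108). Only the lower end of G12D overlapped WT there, and the fold change was 1.34 without WT replicates 5 and 6. The highest peak of the same 3′ UTR, with a miR-375 8mer, differed in that its medians were alike, 160 in WT and 166 in G12D (log2 fold change 0.68). For Eif2b2, a subunit of the exchange factor, the 3′ UTR peak (chr12:85226203-85226279) had strong sites of 4 families, miR-15/16, miR-674, miR-24 and miR-484. It ran from 0 over 2.32 to 13.8 in WT and from 11.1 over 18.3 to 25.8 in G12D, with only 1 WT tumour inside the G12D range. The log2 fold change was 2.64 ± 0.72 (limma, adjusted p = 0.108), and 1.92 without WT replicates 5 and 6.

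An exonic peak of Eif5b, the GTPase that joins the ribosomal subunits (chr1:38045315-38045363), had miR-103/107 and miR-15/16 sites. It ran from 0 over 6.74 to 33.6 in WT and from 22.8 over 42.6 to 60.3 in G12D, with a narrow overlap (log2 fold change 2.46 ± 0.75, limma, adjusted p = 0.108). Without WT replicates 5 and 6 the fold change was 1.34. Eif4h, a helper of the same helicase as Eif4b, was the second member whose groups did not overlap. Its 3′ UTR peak ran from 12.1 over 25.9 to 33.1 in WT and from 33.9 over 43.6 to 56.9 in G12D (log2 fold change 0.90 ± 0.59, limma, adjusted p = 0.220). Its 5 strong sites were for miR-148/152, miR-130/301, miR-22, miR-19 and miR-29. An exonic peak of Eif3d, a subunit of the scaffold eIF3 (chr15:77959509-77959560), went from 0 over 12.4 to 390 in WT and from 3.46 over 10.4 to 64.1 in G12D. Its fold change, -0.46 ± 0.80 (limma, adjusted p = 0.612), turned to 0.59 without WT replicates 5 and 6, since the value of 390 was that of WT replicate 5.

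Eif4g2, an eIF4G relative used in cap-independent initiation, had the most peaks of any member gene. Its 9 peaks comprised 6 in exons and 3 in the 3′ UTR, 3 of them had a strong site, and the highest stood 26.4 times above the lowest per 100 bases. The 3′ UTR held the highest, at 110 normalised counts per 100 bases, against 54.1 for the highest exonic one. An exonic Eif4g2 peak with no site (chr7:111075334-111075391) had the lowest fold change of any tested member, -0.77 ± 0.67 (limma, adjusted p = 0.334). It ran from 2.41 over 7.89 to 79.6 in WT and from 0.855 over 5.02 to 28.9 in G12D, so the groups overlapped almost fully.

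Elongation factors, which carry transfer RNA to the ribosome and move it along the mRNA, were represented mainly by coding exons. Eef1a1, the carrier of transfer RNA, had 5 exonic peaks, which spanned a 19.0-fold range per 100 bases. The highest, with no site (chr9:78478955-78479006, minus strand), ran from 16.9 over 197 to 500.1 in WT and from 197 over 264 to 437 in G12D. The G12D range lay wholly inside the WT range, and the log2 fold change was 1.23 ± 0.68 (limma, adjusted p = 0.166) with all libraries and 0.11 without WT replicates 5 and 6. Per 100 bases it reached 474 normalised counts, close to the exonic peak of Rpl14. A low Eef1a1 peak (chr9:78480595-78480636) had a negative fold change, -0.60 ± 0.89 (limma, adjusted p = 0.559). Eef2, the translocase, reached 120 per 100 bases in its highest exonic peak, at 61.0 ± 49.9 normalised counts in WT and 76.4 ± 13.5 in G12D. The elongation factors' 1 plain 3′ UTR peak was on Eef1b2, the exchange factor for eEF1A (chr1:63177768-63177824), with a miR-200 site. It ran from 9.06 over 55.9 to 103 in WT and from 22.2 over 38.6 to 138 in G12D, and the medians went against its log2 fold change of 0.38 ± 0.67 (limma, adjusted p = 0.617).

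The hnRNPs package new transcripts and influence splicing, and their peaks were spread over exons, introns and both UTRs. The highest exonic peak was on Hnrnpa2b1 (chr6:51466641-51466702), with a miR-27 8mer. It ran from 4.82 over 46.1 to 129 in WT and from 39.4 over 95.4 to 171 in G12D, and the log2 fold change of 1.27 ± 0.72 (limma, adjusted p = 0.175) was 0.03 without WT replicates 5 and 6. The highest 3′ UTR peak, on Hnrnpl (chr7:28820616-28820669), held a miR-22 8mer and had nearly equal medians, 34.0 in WT (0 to 55.9) and 34.3 in G12D (30.5 to 61.3). A 5′ UTR peak of Hnrnpd, which also binds AU-rich elements in mRNAs, had a miR-15/16 8mer and differed more. It ran from 0 over 2.59 to 9.88 in WT and from 4.34 over 27.9 to 39.3 in G12D (log2 fold change 2.49, limma, adjusted p = 0.108).

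SR proteins promote splicing by binding exonic enhancers. The 3′ UTR peak of Srsf9 (chr5:115330516-115330571, plus strand), with a miR-193 site, had the highest log2 fold change of the tested members, 2.66 ± 0.62 (limma, adjusted p = 0.108). WT tumours ran from 1.89 over 3.94 to 18.8 normalised counts and G12D tumours from 14.5 over 37.8 to 113. Of the WT tumours only replicate 4 lay above the lowest G12D tumour. Batch 1 gave a fold change of 2.26, batch 2 one of 3.07, and the fit that left out WT replicates 5 and 6 one of 2.23. In that last fit it was the 1 member called by limma. Srsf5 had 5 peaks, spanning a 67.6-fold range per 100 bases, and its exonic peak with a miR-192/215 site (chr12:80949715-80949764) ran from 2.41 over 23.9 to 37.9 in WT and from 22.1 over 47.1 to 109 in G12D. These groups overlapped by a few tumours (log2 fold change 1.35 ± 0.70, limma, adjusted p = 0.15), and the fold change was 0.50 without WT replicates 5 and 6. The highest SR protein peak in a plain 3′ UTR, on Srsf10 (chr4:135865195-135865248), had miR-425 and miR-26 sites, with medians of 18.2 in WT (11.7 to 45.8) and 40.8 in G12D (9.68 to 93.2).

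Rbm symbols cover a mixed group of proteins with RNA recognition motifs, several of them spliceosome components. The highest 3′ UTR peak was on Rbms1 (chr2:60751057-60751143), with 8mers for miR-7 and let-7. It ran from 9.06 over 57.5 to 112 in WT and from 67.1 over 112 to 228 in G12D (log2 fold change 1.5 ± 0.68, limma, adjusted p = 0.127). Without WT replicates 5 and 6 the fold change was 0.42. A second peak in the same 3′ UTR (chr2:60750554-60750639), with miR-183 and miR-15/16 8mers, had a fold change of the opposite sign, -0.39 ± 0.84 (limma, adjusted p = 0.682), with medians of 11.0 and 9.45. Neither passed the adjusted threshold, and in the first 3 of 6 G12D tumours were above every WT tumour. The highest exonic peak, on the spliceosome component Rbm22, had a miR-141 site and ran from 9.06 over 26.4 to 117 in WT and from 30.1 over 68.1 to 158 in G12D. A 3′ UTR peak of Rbm25 with no site (chr12:83668461-83668513) was among the 5 with the smallest p for a lower level in G12D, although its log2 fold change was -0.40 ± 0.72 (limma, adjusted p = 0.631).

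**Figure D4:**
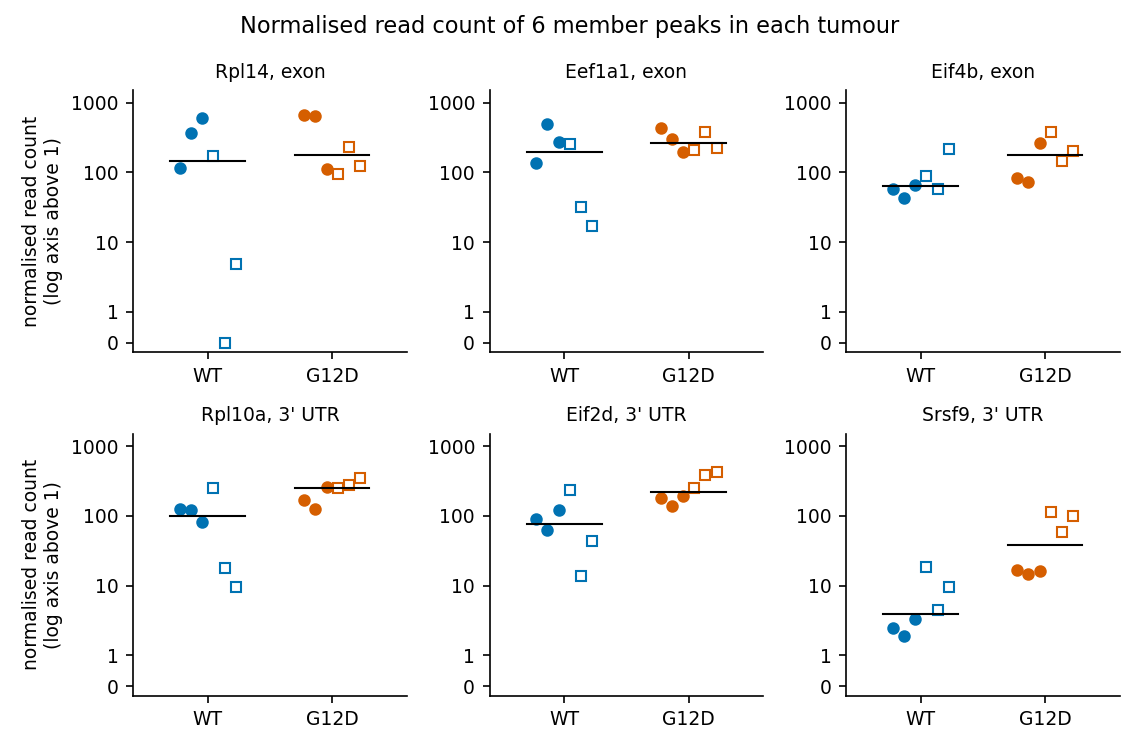
Normalised read count in each tumour (vertical axis, logarithmic above 1 and linear below) for 6 member peaks, 1 per panel, by genotype, with filled circles for batch 1, open squares for batch 2 and a line at the median. In Rpl14 and Eef1a1 the lowest WT points are the shallow replicates 5 and 6, whereas in Srsf9 1 WT point, at 18.8, lies above the lowest G12D point, at 14.5.

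Whether Ago2 signal at these genes differed between K-Ras genotypes was tested over all 7527 peaks with a mean of at least 5 normalised counts, which left 159 of the 176 members. No member was called higher or lower by limma at an adjusted p under 0.05, and of all tested peaks 0% were called higher and 0% lower. At an unadjusted p under 0.05, 46 members were higher in G12D (28.9%), against 35.9% of all tested peaks, and 0 were lower, against 0.173%. edgeR's quasi-likelihood test called 0 members higher, against 0.0531% of all tested peaks, and 0 lower, against 0.0797%, with Srsf9 at the smallest adjusted p (0.0663). DESeq2 called 12 members higher (7.55%), against 10.1% of all tested peaks, and 0 lower, against 0.359%. Every G12D tumour was above every WT tumour in 2 members (1.26%), Rpl4 and Eif4h, against 1.7% of all tested peaks, and below in 0, against 0%. In each of these counts the member share was at or below that of all peaks. The peaks of smallest p for a higher level in G12D (Srsf9, Eif2b2, Eif4ebp2, Eif5b and Rpl4) were all in the G12D peak list alone. Of those for a lower level, Eif3d, Rbm25 and Rbms1 were in the WT list alone. Eef1a1 was in the G12D list alone and Eif4g2 in both. For peaks that entered through 1 genotype's list, the direction is in part fixed by that choice.

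The 12 calls of DESeq2 were exonic peaks of Eif1ad, Eif5b, Rps6ka1 and Rpl4, 3′ UTR peaks of Eif4e2, Eif2b2, Srsf9 and, in 2 peaks, Eif4ebp2, 5′ UTR peaks of Eif4g1 and Hnrnpd, and an intronic peak of Eif4b. Of these 12 peaks 8 bore an Eif symbol, 2 of them on the inhibitor Eif4ebp2 and 6 on other Eif genes, and 29.6% of all tested members (47 peaks) bear one. Srsf9 had the smallest adjusted p (4.46e-05, log2 fold change 2.72 ± 0.49, DESeq2), which ranged from 4.46e-05 to 0.640 over 25 fits and was under 0.05 in 5 of them. Eif2b2 was next (0.0103, log2 fold change 1.95 ± 0.51, DESeq2), with a range of 0.0103 to 0.640 and 3 fits of 24 under 0.05. The other 10 had adjusted p-values of 0.0153 to 0.0447 in DESeq2 and were under 0.05 in 1 to 3 fits each. Without WT replicates 5 and 6 DESeq2 called 1 member (0.629%), Srsf9, against 2.12% of all tested peaks, and limma called 1 (Srsf9), against 0.0399%. All 12 were also called in the authors' deposited table, where 175 members had an adjusted p. The authors' deposited table called 13 members higher (7.43%), against 9.92% of all its peaks, and 1 lower (0.571%), against 0.355%, the last a low exonic Rps3a1 peak under the filter used here.

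The count of calls depended on the libraries that entered. Without WT replicate 4, limma called 64 members higher (40.3%), against 45.1% of all tested peaks. With a pseudocount of 5 it called 9 (5.66%), against 6.72%. In batch 2 alone it called 4 of 148 (2.70%), against 3.55%: the exonic peaks of Rpl14 and Rps3a1, an intronic peak of Rbm14 and a 3′ UTR peak of Rbm47, where WT replicate 5 was at 0 and WT replicate 6 at 0 or 4.82. A test of whether the genotype difference itself varied between batches called 0 members, against 0.0399% of all tested peaks (3 peaks), with a smallest adjusted p among members of 0.369 (limma). At an unadjusted p under 0.05 it took 18 members (11.3%), against 12.6% of all tested peaks.

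Fold changes of members followed those of all peaks. Their median log2 fold change was 1.23, against 1.33 for all tested peaks, and 68 of 159 members lay above that median of all tested peaks. Within batch 1 the members' median was 0.21 (all peaks 0.43), within batch 2 it was 2.29 (all peaks 2.29), and leaving out WT replicates 5 and 6 gave 0.21 (all peaks 0.38). Exonic and 3′ UTR members had nearly the same median, 1.13 over 63 peaks and 1.18 over 61, a difference of -0.05, against -0.01 over all peaks. Among the groups, hnRNP genes had the lowest median, 1.01, and without WT replicates 5 and 6 it was 0.01. The S6 kinases had the highest, 1.40, and 0.48 without those libraries. Ribosomal proteins went from 1.34 to 0.20, elongation factors from 1.23 to -0.15, SR proteins from 1.24 to 0.25, Rbm genes from 1.39 to 0.37 and initiation factors from 1.24 to 0.40. At an unadjusted p under 0.05 (35.9% of all tested peaks), 15 of 47 tested peaks with Eif symbols were higher in G12D (31.9%) and 15 of 37 on ribosomal protein genes (40.5%). The counts were 8 of 18 for Rbm genes, 4 of 9 for S6 kinases, 2 of 28 for hnRNP genes, 1 of 9 for elongation factors and 1 of 11 for SR proteins. These shares run on both sides of that of all tested peaks, with hnRNP genes lowest (7.14%).

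**Figure D5:**
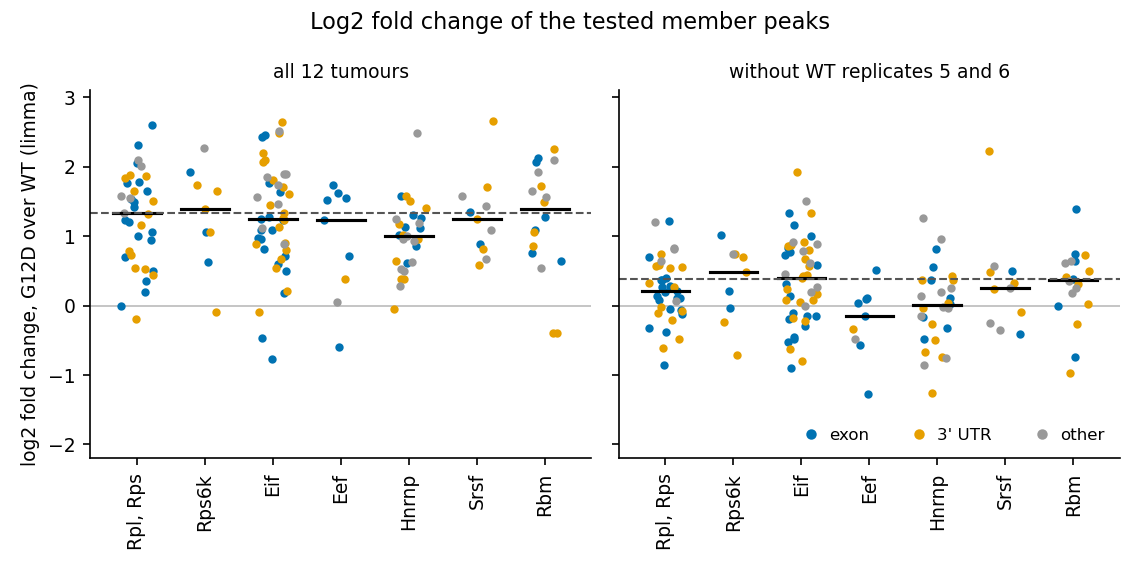
Log2 fold change of G12D over WT (limma) for each tested member peak by gene group, blue for exons, orange for 3′ UTRs and grey for other regions, with a black line at the group median and a dashed line at the median of all tested peaks. With all 12 tumours (left) the group medians run from 1.01 to 1.40 around the dashed line at 1.33, and without WT replicates 5 and 6 (right) they run from -0.15 to 0.48 around 0.38.

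Among lists of other genes of the same processes, that of the ribosome and nucleolus differed from the members in its values, and limma called 0 peaks in each list. The ribosome and nucleolus list also took in Mdm2 and Btf3, which are not structural parts of the ribosome. Of its 28 genes, 14 had peaks (17 peaks), of which DESeq2 with all libraries called 5 higher (29.4%, against 10.1% of all tested peaks). Their median log2 fold change was 1.69, or 0.36 above that of all tested peaks, and 0.24 above it without WT replicates 5 and 6. Of those 17 peaks 29.4% were exonic and 82.4% had a strong site. The highest of them was on Nop58, a core protein of small nucleolar ribonucleoproteins, at 168 ± 135 normalised counts in WT and 407 ± 275 in G12D. The scaffold protein of the small subunit, Gnb2l1, stood at 65.9 and 180. Of 38 other translation control genes, 22 had peaks (61 peaks), with 4 of 58 tested called higher by DESeq2 (6.90%) and a median log2 fold change that differed from that of all tested peaks by -0.18. Cpeb4, a polyadenylation element binder, stood at 181 in WT and 472 in G12D, and the poly(A)-binding protein Pabpc1 at 139 and 198 in its highest exonic peak. Of 50 other splicing genes, 28 had peaks (70 peaks), with 2 of 69 tested called higher by DESeq2 (2.90%), a median equal to that of all tested peaks (1.33) and a strong site in 55.7%. Their highest peak was on the splicing scaffold Srrm2, an exonic peak with no site, at 327 in WT and 680 in G12D. The epithelial splicing regulator Esrp1 had an exonic peak with a let-7 site, at 158 and 305.

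Markers fixed for the cells that a scraped tumour can hold gave the following. Peaks lay on 8 of 10 colon epithelium markers, with a summed signal of 766 to 10036 in WT and 4127 to 10111 in G12D. Fibroblast and smooth muscle markers had peaks on 3 of 8 genes, with a sum of 18.1 to 679 in WT and 218 to 709 in G12D, and no peaks lay on Acta2, Myh11, Des, Tagln or Pdgfra. There were no peaks on the 8 leukocyte or the 4 endothelial markers. The lowest sums of both lists with peaks were those of WT replicate 5, and the part of cell makeup in the members' values was not tested.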

How the data were processed

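The authors deposited, for 12 Ago2-bound mRNA libraries, a signal table of read counts per merged peak divided by a size factor per library, and a like table for miRNAs. The submitters' processing notes name the builds mm10 and GRCm38, STAR (2.5.2b) and DESeq2, without saying what each did. No peak caller is given in them. The signal columns name genotype and number but not library type and were taken as mRNA libraries, and input libraries were not analysed here. The deposited log2 fold changes and p-values are named as the authors' wherever used. The 2 peak lists hold a deposited score and width per peak, and only their overlap of at least 1 base with the merged peaks was used. Of the member peaks, 35 were in both lists (19.9%, against 26.2% of all annotated peaks) and 136 in the G12D list alone (77.3%, against 71.9%). The WT list alone held 5 member peaks and 149 of all 7585 annotated peaks.

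All values (100%) were whole multiples of 1 read within 0.001 reads, so reads could be recovered. Genotypes were compared with limma 3.58.1 (trend option, R 4.3.3) on log2(value + 1), in a model of batch and genotype. The 7527 peaks of mean 5 or more entered, and p-values were adjusted over all of them by the Benjamini-Hochberg method at 0.05. The added 1 shrinks the fold changes of low peaks. Even so, the median log2 fold change of all tested peaks was larger in limma (1.33) than in DESeq2 or edgeR (0.86 in both). edgeR 4.0.16 and DESeq2 1.42.0 were run on recovered reads as alternatives and called 0 and 12 members. The fits were tested on simulated data. Levels per 100 bases divide by peak width. The members and lists were chosen with earlier results of these data known. Peaks named are, per group, the highest exonic and 3′ UTR peak, the 5 of smallest p in each direction, the 5 genes with the most peaks and, per list, up to 4 genes; others were chosen after their values were seen. The replicate numbers did not pair the tumours: deviations of same-numbered tumours correlated between -0.11 and 0.65. Of 596 miRNAs, 517 matched a RefSeq entry.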

Additional observations from a re-analysis of the deposited data

Results flagged for a closer look

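Of 52 groups of 6 tumours examined, 5 had 1 tumour far from the other 5, where chance alone would give about 1 in 20. In WT these were the exonic peak of Eif4b, at 214.5 normalised counts in replicate 6, the exonic peak of Eif3d, at 390 in replicate 5, the 3′ UTR peak of Eif2b2, at 13.8 in replicate 4, and the exonic peak of Rps6ka3, at 196 in replicate 4. In G12D it was the 3′ UTR peak of Rbms1, at 228 in replicate 5. WT replicates 5 and 6 are the 2 shallowest libraries, and the part of depth in the values of Eif4b and Eif3d was not tested.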

How the results depend on the processing

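The number of members called higher in G12D, 0 with limma, was 12 with DESeq2 on recovered reads, 9 with a pseudocount of 5, 4 in batch 2 alone, 1 without WT replicates 5 and 6 in either limma or DESeq2, and 0 to 64 when 1 tumour was left out, the 64 without WT replicate 4. The cause was not tested. The exonic seed share, 59.7%, was 73.3% for peaks in both lists, 79.2% with 6mers, 23.6% for 8mers alone and 70.9% without the 4 genes with 3 or more exonic peaks, a setting chosen after seeing the data, as was DESeq2 without WT replicates 5 and 6. The 3′ UTR seed share, 73.4%, was 85.7% for peaks with a mean of at least 20, 100% in both lists, 85.9% with 6mers and 25% for 8mers alone. Another 122 values for these comparisons were counted as unchanged, although some of them moved or changed sign. The exonic minus 3′ UTR difference in median fold change, -0.05, was 0.16 for peaks with a mean of at least 20. It was -0.16 without WT replicates 5 and 6. The WT mean of the members' signal share, 1.56%, was 1.89% without those 2 libraries, above the 1.67% of G12D.

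Some named peaks turned sign in other fits, and limma with all tumours had called 0 of the 7527 tested peaks. Without WT replicates 5 and 6, Eef1b2 went to -0.33 (-0.26 in DESeq2), Rps6kb1 to -0.23 and Eif3d to 0.59 (0.39 in DESeq2, and -1.02 to 0.15 with 1 tumour left out, the last without WT replicate 5). With TMM factors, which moved the median of all peaks from 1.33 to 0.59, Eef1b2 was -0.60 and Srsf10 -0.41. In batch 1 Srsf10 was -0.11, Hnrnpa2b1 -0.036 and Rps6kb1 -0.00496, and in batch 2 the lower Rbms1 peak was 0.61. With 1 tumour left out, the low Eef1a1 peak ranged from -0.99 to 0.13 and the lower Rbms1 peak from -1.13 to 0.27, both highest without G12D replicate 3, and Rbm25 ranged from -0.78 to 0.033, highest without G12D replicate 2. In the other fits of named peaks, 528 kept direction and side and 23 gained a call. With the replicate block in the model, members called higher or lower stayed at 0, so that no call changed. The members' median was again 0.10 below that of all peaks (-0.10), but it could not have moved. Replicate numbers are balanced over genotype, so this block leaves every fold change as it was. Of the 6 numbers, 1 had its own number as the best correlated partner. Depth limits the values in WT replicates 5 and 6, where 64.8% and 40.9% of members were at 0.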
